A study of Mus musculus with 8 samples.

Results

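Sox4, Sox9, Prox1, Myc, Mycn, Ccnd1, Ccnd2 and Cd44 are growth and progenitor genes that Wnt signalling is known to drive in intestinal epithelium. They were taken as the 8 named genes among 19938 genes measured on 8 arrays of mouse colonic tumors, through probe sets annotated with exactly 1 gene symbol. Each of them had 1 such probe set, so no choice between probe sets was needed. Values are log2 RMA signals (robust multi-array average, a summary of each probe set), on which a difference of 1 is a doubling.

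The serrated group (3 arrays) held serrated tumors of the proximal colon, labelled K-rasG12Dint together with Ink4a/Arf-/-. The K-rasG12D AOM group (3 arrays) held AOM-induced tumors of the distal colon labelled K-rasG12Dint, where AOM is the colon carcinogen azoxymethane. The LSL AOM group (2 arrays) held AOM-induced tumors of the distal colon labelled LSL-K-rasG12D/+, whose sample titles read wt. In an LSL allele a stop cassette flanked by lox sites holds the gene silent until a recombinase cuts it out, and the labels name neither the recombinase nor its promoter. All 8 tumors carried a K-rasG12D allele by label, a silent one in the LSL AOM group, and no normal colon was measured. Between serrated and AOM tumors, the colon segment, the AOM, the Ink4a/Arf genotype and the kind of tumor change together and cannot be told apart. Against LSL AOM tumors, and in part against all AOM tumors, the state of the K-rasG12D allele changes with them as well. The labels used here do not state whether the tumors of a group are from different mice, so p-values measure only how far these samples spread, which may be technical.

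In the Wnt pathway, a ligand at the cell surface stops the breakdown of beta-catenin, which then binds TCF/LEF proteins at its target genes. In the crypts of the gut the pathway keeps stem and progenitor cells dividing, and it is switched on without ligand in many colorectal tumors. Sox4 and Sox9 are transcription factors of the HMG-box family, Prox1 is a homeobox transcription factor, and Myc and Mycn are basic helix-loop-helix factors that drive growth. Ccnd1 and Ccnd2 encode D-type cyclins, the partners of Cdk4 and Cdk6 at the start of the cell cycle, and Cd44 encodes a cell-surface receptor for hyaluronan.

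Promoter windows are shown for Sox4 and Prox1, which had the largest differences of the 8 genes, and for Mycn, whose window held most of the motif matches. RefSeq windows were at hand for 4 of the 8 genes, in 5 windows with that of Cd44. Each sequence is the 250 bases before an annotated start, 5′ to 3′ on the gene's strand. Capitals mark matches on either strand to CTTTGA or CTTTGT, cores of TCF/LEF sites, to the E-box CACGTG bound by Myc, or to the E2F motif TTTGGCGC. CTTTGT read on the other strand also fits SOX sites.
Sox4, GRCm38.p6 chr13:28953700-28953949, minus strand: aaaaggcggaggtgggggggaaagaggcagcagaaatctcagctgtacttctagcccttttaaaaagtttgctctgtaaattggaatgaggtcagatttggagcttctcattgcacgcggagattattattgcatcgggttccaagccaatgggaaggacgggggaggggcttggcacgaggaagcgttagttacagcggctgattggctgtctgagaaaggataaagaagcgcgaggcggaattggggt
Prox1, upstream start, GRCm38.p6 chr1:190170828-190171077, minus strand: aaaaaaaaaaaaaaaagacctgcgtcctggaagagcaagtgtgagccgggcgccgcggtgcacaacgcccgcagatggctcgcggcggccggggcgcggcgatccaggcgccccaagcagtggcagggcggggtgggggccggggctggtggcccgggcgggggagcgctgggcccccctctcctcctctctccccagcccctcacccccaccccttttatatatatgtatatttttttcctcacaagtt
Prox1, downstream start, GRCm38.p6 chr1:190169516-190169765, minus strand: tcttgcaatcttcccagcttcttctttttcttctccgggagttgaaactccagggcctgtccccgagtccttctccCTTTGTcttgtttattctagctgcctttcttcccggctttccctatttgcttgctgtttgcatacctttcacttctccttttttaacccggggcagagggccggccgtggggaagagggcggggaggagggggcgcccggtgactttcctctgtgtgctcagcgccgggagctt
Mycn, GRCm38.p6 chr12:12941837-12942086, minus strand: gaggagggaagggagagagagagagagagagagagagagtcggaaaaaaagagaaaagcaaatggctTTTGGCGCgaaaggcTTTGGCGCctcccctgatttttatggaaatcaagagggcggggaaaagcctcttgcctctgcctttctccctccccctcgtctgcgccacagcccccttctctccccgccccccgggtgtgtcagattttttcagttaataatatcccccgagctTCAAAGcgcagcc

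Neither core was found in the Sox4 window or in the first Prox1 window, nor in that of Cd44. The second Prox1 window held CTTTGT, 169 bases before the start, and the Mycn window held CTTTGA on the opposite strand, 8 bases before the start. Over 32851 windows of this length, 13.8% held CTTTGA and 16.5% held CTTTGT, so such matches are common. The Mycn window held TTTGGCGC at 2 places, 161 and 176 bases before the start, which 0.417% of windows held at least once. CACGTG, present in 6.02% of all windows, was in none of the 5. These are matches of letters in short windows, and binding was not measured.

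Of the 8 genes, 6 fell in serrated tumors relative to all AOM tumors and 0 rose (limma, adjusted p under 0.05), where 5.76% of all genes fell and 3.62% rose. The 6 genes were Prox1, Sox4, Myc, Ccnd1, Sox9 and Mycn, with log2 differences of -4.73 to -0.77. Cd44 and Ccnd2 did not pass. The median log2 difference of the 8 genes was -1.43, and that of all genes was 0.04. Without the dimmest 40% of genes the latter was -0.14, and 17.7% of the genes fitted passed in either direction. At an unadjusted p under 0.05 the count was 7 lower and 0 higher, against 15.2% and 9.57% of all genes. The count of 6 was 3 without serrated replicate 2 or without LSL AOM replicate 1, and 4 without LSL AOM replicate 2. In these settings, in that order, 3.2%, 4.0% and 4.5% of all genes passed in either direction. Arrays of serrated and AOM tumors did not overlap for 5 of the 8 genes, all lower in serrated tumors, as for 8.93% of all genes.

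Markers of differentiated epithelium were read beside this fall. Of 9 absorptive cell markers, 5 rose (Slc26a3, Car1, Aqp8, Fabp2 and Alpi), 0 fell and 4 did not pass, with a median log2 difference of 3.02. Their mean level was 8.80, 7.98 and 6.997 on serrated arrays, against 3.72 to 5.56 on K-rasG12D AOM and 4.51 to 4.80 on LSL AOM arrays, without overlap. Of 7 measured goblet cell markers, Spdef and Clca1 rose, 0 fell and 5 did not pass, with means of 8.72 to 9.17 on serrated, 5.88 to 8.11 on K-rasG12D AOM and 7.99 to 8.67 on LSL AOM arrays. Their part in the fall of the 8 genes was not tested.

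**Figure D1:**
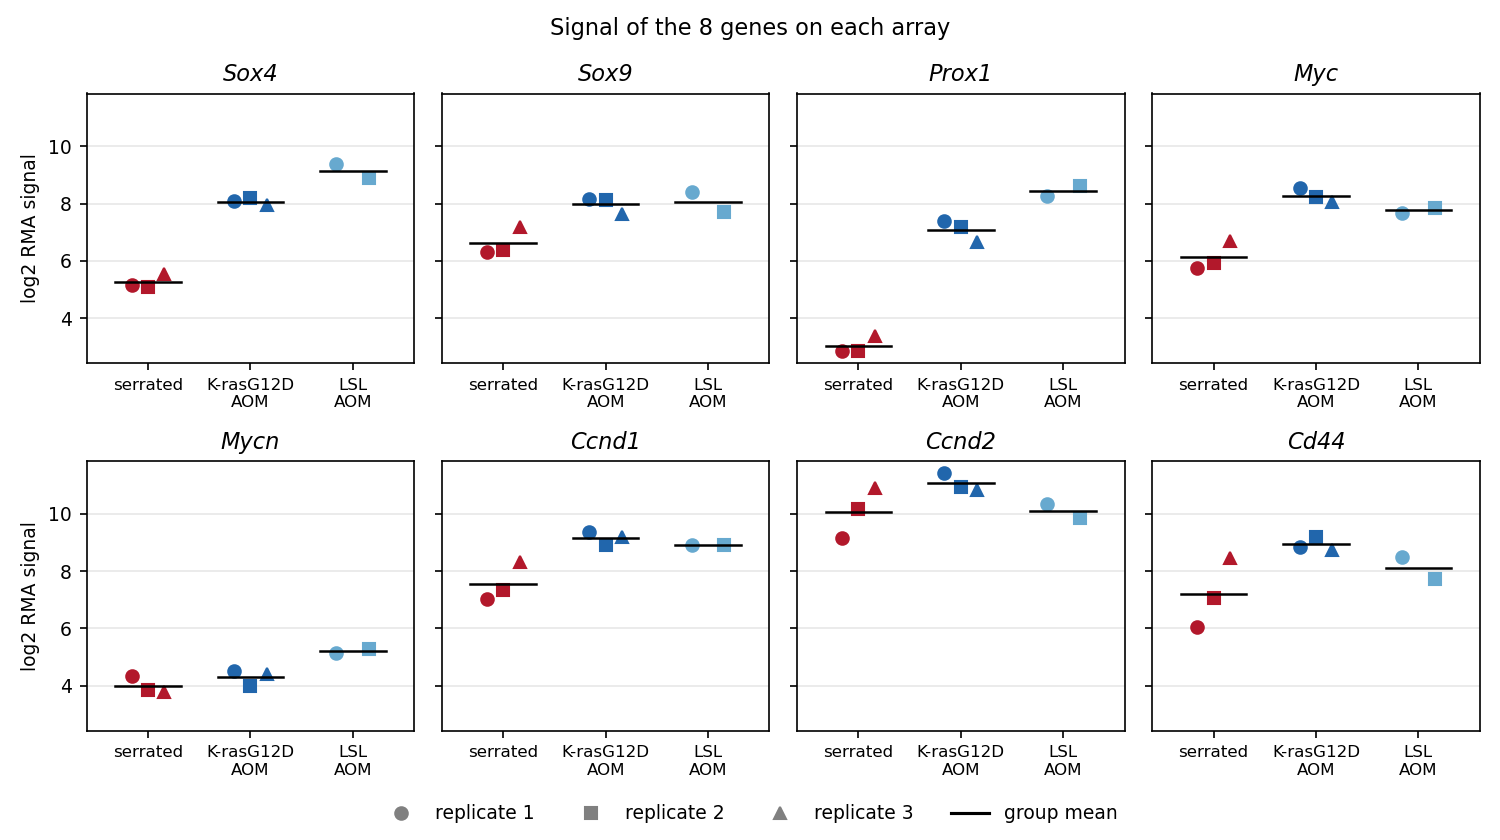
Log2 RMA signal of the 8 genes, 1 panel a gene, on the 3 serrated, 3 K-rasG12D AOM and 2 LSL AOM arrays; points are arrays, their shape gives the replicate number, and bars are group means. Prox1 lies between 2.86 and 3.39 on serrated arrays and at 6.66 or above on every AOM array, while serrated arrays spread from 6.06 to 8.46 for Cd44.

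Serrated replicates 1 and 3 stood apart from each other. On the second principal component, with 21.3% of the variance, they scored 49.4 and -52.3, against -21.2 for serrated replicate 2 and -11.1 to 24.2 for the AOM arrays. On the first, with 48.7% of the variance, serrated replicates 1, 2 and 3 scored -66.3, -63.7 and -29.1. AOM arrays scored 21.0 to 44.1 there, so serrated replicate 3 was the serrated array nearest to them. The SD over genes was 1.77 on serrated replicate 1, against 2.00 to 2.13 on the other 7 arrays. Cdkn2a, of the Ink4a/Arf locus, stood at 4.01, 3.79 and 3.37 on serrated arrays, against 5.39, 6.21 and 5.95 on K-rasG12D AOM arrays and 3.59 and 4.28 on LSL AOM arrays. The place of its probe set relative to the deletion is not known, so it does not check the genotype. Epithelial markers (10 genes, among them Epcam, Cdh1 and Vil1) averaged 9.68 to 9.72 on serrated, 8.91 to 9.03 on K-rasG12D AOM and 9.03 to 9.13 on LSL AOM arrays. Krt20 and Cdx2 rose among them, 0 fell and 8 did not pass. Signals of 7 stomach surface cell genes averaged 6.67, 10.63 and 10.4 on serrated replicates 1, 2 and 3, so replicate 1 was lowest. They averaged 3.29 to 3.71 on K-rasG12D AOM and 2.92 to 3.37 on LSL AOM arrays. All 7 rose in the serrated samples, whose label is colon.

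Prox1, a transcription factor that marks Wnt-driven colon tumors and is also needed for lymphatic vessels, showed the largest difference of the 8 genes. It measured 2.86, 2.86 and 3.39 on serrated arrays, against 7.41, 7.19 and 6.66 on K-rasG12D AOM arrays and 8.27 and 8.61 on LSL AOM arrays. The 3 groups did not overlap, and LSL AOM tumors were highest. Prox1 fell in serrated tumors by 4.73 ± 0.22 on the log2 scale (SE, adjusted p = 3.15e-05 in limma), the fifth most negative difference of all 19938 genes. Prox1 on serrated arrays lay below the median gene of their own array (4.17 to 4.20), where signal is near background and the size of a difference is uncertain. The fall was 4.05 ± 0.25 against K-rasG12D AOM tumors (adjusted p = 0.000197) and 5.40 ± 0.27 against LSL AOM tumors (0.000106).

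Cell types known to carry Prox1 were read beside it. Lymphatic endothelial markers (6 measured, among them Lyve1, Pdpn and Flt4) averaged 3.90 to 4.04 on serrated arrays, 4.60 to 5.05 on K-rasG12D AOM arrays and 3.94 to 3.998 on LSL AOM arrays. None of the 6 passed against all AOM tumors, and Pdpn fell against K-rasG12D AOM tumors. The part of these cells in the Prox1 result was not tested. Of 10 enteroendocrine markers, 0 rose and 0 fell, and their mean level was 3.80 to 4.36 on serrated arrays, against 3.12 to 4.01 on K-rasG12D AOM and 3.79 to 3.83 on LSL AOM arrays. In bulk tumors, fewer cells of a type and less RNA per cell cannot be told apart, and this holds for every gene below.

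Sox4, a SoxC transcription factor of progenitor cells, measured 5.17, 5.10 and 5.54 on serrated arrays, against 8.08, 8.19 and 7.94 on K-rasG12D AOM arrays and 9.39 and 8.88 on LSL AOM arrays. The order of the groups was that of Prox1, again without overlap. Sox4 fell by 3.33 ± 0.18 (SE, adjusted p = 5.21e-05), which is 10.1-fold and the most negative but 25 of all genes. Against each AOM group alone it fell by 2.80 ± 0.20 (K-rasG12D AOM, adjusted p = 0.000350) and by 3.87 ± 0.22 (LSL AOM, 0.000106). For Sox4 and Prox1, each of these 3 calls held under every alternative tried.

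Sox9, a SoxE transcription factor of crypt progenitors and Paneth cells, moved less. Its signal was 6.30, 6.40 and 7.17 on serrated arrays, 8.18, 8.14 and 7.63 on K-rasG12D AOM arrays and 8.40 and 7.71 on LSL AOM arrays. Serrated arrays lay below all AOM arrays, and the AOM groups overlapped. Sox9 fell by 1.40 ± 0.26 against all AOM tumors (SE, adjusted p = 0.0143), by 1.36 ± 0.29 against K-rasG12D AOM tumors (0.0298) and by 1.43 ± 0.33 against LSL AOM tumors (0.0391). The first call did not hold without serrated replicate 2 (adjusted p = 0.0773) or LSL AOM replicate 1 (0.0570). The call against K-rasG12D AOM tumors was lost without serrated replicate 1 or 2 or K-rasG12D AOM replicate 1 or 2 (adjusted p of 0.0531 to 0.123). That against LSL AOM tumors held only without serrated replicate 3 among the arrays left out in turn (otherwise 0.0549 to 0.294). Subtraction of array medians also ended the calls against K-rasG12D AOM (0.0510) and LSL AOM tumors (0.0547), as did a fit of the compared groups alone against LSL AOM tumors (0.110).

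Paneth cell markers were read beside Sox9. Of 8 measured, Lyz1, Pla2g2a and Mmp7 (itself also a Wnt target) fell, 0 rose and 5 did not pass, and the mean level was 4.99 to 5.44 on serrated arrays, against 6.27 to 7.13 on K-rasG12D AOM and 6.97 to 8.01 on LSL AOM arrays. Defa24, a Paneth cell defensin that did not pass, stood at 2.16 to 2.27 on serrated, 2.22 to 3.98 on K-rasG12D AOM and 2.38 to 5.70 on LSL AOM arrays. Itln1 measured 6.99, 6.42 and 3.67 on serrated, 4.48, 5.34 and 4.55 on K-rasG12D AOM and 7.06 and 5.92 on LSL AOM arrays. Serrated arrays overlapped with both AOM groups for Itln1, Ang4 and Spink4, which did not pass. The part of Paneth cells in the Sox9 result was not tested. Of the 17 other Sox genes, 1 fell, the endodermal and endothelial factor Sox17 (-1.69 ± 0.43, adjusted p = 0.0420), 0 rose and 16 did not pass. Their median was -0.10, and Sox17 did not pass without serrated replicate 1 or 2, K-rasG12D AOM replicate 3 or either LSL AOM array (adjusted p of 0.0679 to 0.167), nor after subtraction of array medians (0.0579).

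Myc, a transcription factor that drives growth and a textbook Wnt target, measured 5.74, 5.92 and 6.70 on serrated arrays. It stood at 8.56, 8.23 and 8.06 on K-rasG12D AOM arrays and at 7.68 and 7.86 on LSL AOM arrays. Serrated arrays were lowest and K-rasG12D AOM arrays highest, with no overlap between any of the 3 groups. Myc fell by 1.90 ± 0.24 (SE, adjusted p = 0.00244), or 3.74-fold, against all AOM tumors and by 2.16 ± 0.26 (0.00334) against K-rasG12D AOM tumors. These calls held with any single array left out. The fall of 1.65 ± 0.29 against LSL AOM tumors (adjusted p = 0.0172) did not pass without serrated replicate 2 or either LSL AOM array (0.0659 to 0.137), nor in a fit of those groups alone (0.0659).

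Mycn was a dim gene, whose group means lay between percentiles 46.6 and 63.2 of all genes. It measured 4.33, 3.84 and 3.80 on serrated arrays, 4.51, 3.99 and 4.43 on K-rasG12D AOM arrays and 5.14 and 5.27 on LSL AOM arrays. Serrated and K-rasG12D AOM arrays overlapped, and both LSL AOM arrays lay above all others. The difference from all AOM tumors, -0.77 ± 0.19 (SE), passed narrowly (adjusted p = 0.0394). It passed only without serrated replicate 1 or K-rasG12D AOM replicate 2 among the arrays left out in turn (otherwise 0.0566 to 0.160), and not after subtraction of array medians (0.0529). Against LSL AOM tumors Mycn fell by 1.21 ± 0.24 (adjusted p = 0.0228), though not without serrated replicate 2 or either LSL AOM array (0.0833 to 0.164), nor in a fit of those groups alone (0.0750). Against K-rasG12D AOM tumors the difference was -0.32, with a 95% confidence interval of -0.80 to 0.16 (adjusted p = 0.424).

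Of 10 measured Myc partners and antagonists, 1 rose, 0 fell and 9 did not pass, with a median of 0.06 beside 0.04 for all genes. The gene that rose was Mxd1, which competes with Myc for their common partner Max. Mxd1 measured 9.08, 9.16 and 8.61 on serrated arrays, against 7.24, 6.77 and 7.72 on K-rasG12D AOM arrays and 7.18 and 7.65 on LSL AOM arrays. Its rise was 1.62 ± 0.25 (SE, adjusted p = 0.00563), and it passed under every alternative tried. Max itself differed by 0.50 (adjusted p = 0.0866) and did not pass.

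Genes of growth and ribosome assembly that Myc is known to drive were lower in part. Of 14 measured, 6 fell, 0 rose and 8 did not pass, with a median of -0.92. Mybbp1a, a nucleolar protein, fell by 1.47 ± 0.30 (adjusted p = 0.0202), and Nop56, of the small nucleolar particles that modify ribosomal RNA, by 1.37 ± 0.29 (0.0220). Neither passed without serrated replicate 2 or either LSL AOM array, nor Nop56 without K-rasG12D AOM replicate 1 or 2 (adjusted p of 0.0502 to 0.101). Averaged over the 14 genes, signal was lowest on serrated replicates 1 (6.56) and 2 (6.58). Serrated replicate 3, at 7.48, came near the 7.65 to 7.95 of K-rasG12D AOM arrays and the 7.64 to 7.65 of LSL AOM arrays. The count of 6 ranged from 0, without serrated replicate 2 or either LSL AOM array, through 1 without K-rasG12D AOM replicate 1 or 2 and 3 without serrated replicate 1, to 12 without serrated replicate 3. Calls over all genes also moved, from 3.2% without serrated replicate 2 to 19.4% without serrated replicate 3.

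Ccnd1, cyclin D1, measured 7.03, 7.35 and 8.33 on serrated arrays, 9.35, 8.91 and 9.18 on K-rasG12D AOM arrays and 8.91 and 8.93 on LSL AOM arrays. Serrated arrays lay below all AOM arrays, replicate 3 least so. Ccnd1 fell by 1.47 ± 0.28 (SE, adjusted p = 0.0148) against all AOM tumors and by 1.58 ± 0.31 (0.0221) against K-rasG12D AOM tumors. The first call was lost without serrated replicate 2 or either LSL AOM array (adjusted p of 0.0544 to 0.0779), the second without serrated replicate 2 or any K-rasG12D AOM array (0.0647 to 0.0928). Against LSL AOM tumors the difference of -1.35 ± 0.35 did not pass (0.0577). Without serrated replicate 3 it was -1.73 and passed (0.00398), as 12.7% of all genes did. The smallest such difference with 1 array left out was -1.08. It also passed after quantile normalization (0.0193), without the dimmest 40% of genes (0.0395), with trend and robust options (0.0451) and with array weights (0.000440). In these settings, in that order, 8.90%, 10.6%, 5.17% and 31.9% of all genes fitted passed. The estimation of array weights did not converge.

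Ccnd2, cyclin D2, ran differently. It measured 9.15, 10.16 and 10.91 on serrated arrays, against 11.41, 10.93 and 10.83 on K-rasG12D AOM arrays and 10.35 and 9.84 on LSL AOM arrays. Serrated arrays overlapped with both AOM groups, and serrated replicate 3 lay within the K-rasG12D AOM range. The difference from all AOM tumors was -0.50, with a 95% confidence interval of -1.32 to 0.32 (adjusted p = 0.425), and that from LSL AOM tumors was -0.02 (-1.04 to 0.998, adjusted p = 0.985). Against K-rasG12D AOM tumors it was -0.99 ± 0.40 (adjusted p = 0.194). Without serrated replicate 3 it was -1.41 and passed (0.0241), as 15.98% of all genes did. The smallest such difference with 1 array left out was -0.52. These intervals leave room for differences in either direction against all AOM and LSL AOM tumors.

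Of 16 measured partners, inhibitors and targets of the D cyclins, 3 fell, 0 rose and 13 did not pass, with a median of -0.16. Cdk4, the kinase that D cyclins activate, measured 7.69, 7.32 and 8.35 on serrated arrays, against 9.83, 9.73 and 9.21 on K-rasG12D AOM arrays and 9.90 and 9.83 on LSL AOM arrays. It fell by 1.94 ± 0.25 (SE, adjusted p = 0.00285) and passed under every alternative. Cdk6, the related kinase, fell by 0.97 ± 0.19 (0.0156), not without serrated replicate 2 (0.0792), and Ccne1, cyclin E1, by 1.05 ± 0.26 (0.0386), not with any 1 array left out but serrated replicate 3 (0.0755 to 0.156), nor after subtraction of array medians (0.0533). The third D cyclin, Ccnd3, did not pass, with 4.79 to 5.15 on serrated, 4.94 to 5.29 on K-rasG12D AOM and 5.36 to 5.59 on LSL AOM arrays.

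Cd44, the hyaluronan receptor found on progenitor cells and also on leukocytes and fibroblasts, measured 6.06, 7.07 and 8.46 on serrated arrays. It stood at 8.86, 9.20 and 8.74 on K-rasG12D AOM arrays and at 8.48 and 7.72 on LSL AOM arrays. Serrated arrays spread over 2.40 log2 units, more than for 98.8% of all genes, and overlapped with LSL AOM arrays. The difference of -1.32 ± 0.47 (SE) from all AOM tumors did not pass (adjusted p = 0.117), nor did -1.73 ± 0.52 from K-rasG12D AOM tumors (0.0854) or -0.90 ± 0.58 from LSL AOM tumors (0.435). Without serrated replicate 3 all 3 passed, at -1.95, -2.36 and -1.53 (adjusted p = 0.00549, 0.00469 and 0.0328). In that setting 19.4%, 15.98% and 12.7% of all genes passed, in the same order. The smallest differences with 1 array left out were -0.75, -1.17 and -0.33. None of the 3 passed with any other array left out. The difference from K-rasG12D AOM tumors also passed after quantile normalization (0.0416), where 9.78% of all genes did. All 3 passed with array weights, whose estimation did not converge and which called 51.8%, 50.0% and 31.9% of all genes.

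Markers of other cell types that carry Cd44 were read beside it. Of 8 macrophage markers, 5 fell (Cd68, Csf1r, C1qa, C1qb and C1qc), 0 rose and 3 did not pass, with a mean level of 4.74 to 5.34 on serrated, 5.69 to 6.29 on K-rasG12D AOM and 5.64 to 6.17 on LSL AOM arrays. Of 8 fibroblast markers, 4 fell (Col1a1, Col1a2, Col3a1 and Fn1), with a mean of 6.44 to 7.47 on serrated, 7.72 to 8.24 on K-rasG12D AOM and 7.46 to 8.59 on LSL AOM arrays. Serrated replicate 3 was the highest serrated array for both lists. Of 6 measured T and NK cell markers 0 passed, with means of 3.97 to 4.46 on serrated, 3.85 to 4.48 on K-rasG12D AOM and 3.46 to 3.62 on LSL AOM arrays. The part of these cell types in the Cd44 values was not tested. The probe set gives 1 value for the gene, so the splice forms of Cd44 were not separated.

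Of 10 measured Cd44 ligand enzymes, membrane anchors and splicing factors, 2 fell, 0 rose and 8 did not pass, with a median of -0.15. Rdx and Msn, the anchors radixin and moesin that tie Cd44 to the actin skeleton, fell by 1.27 ± 0.20 (SE, adjusted p = 0.00631) and 1.12 ± 0.29 (0.0432). Rdx passed under every alternative. Msn did not pass without serrated replicate 1 or 2, K-rasG12D AOM replicate 2 or 3 or either LSL AOM array (0.0592 to 0.173), nor after quantile normalization (0.0548) or subtraction of array medians (0.0585). The third anchor, Ezr, differed by 0.28 (adjusted p = 0.335), and the splicing factor Esrp1 by 0.26 (0.369).

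**Figure D2:**
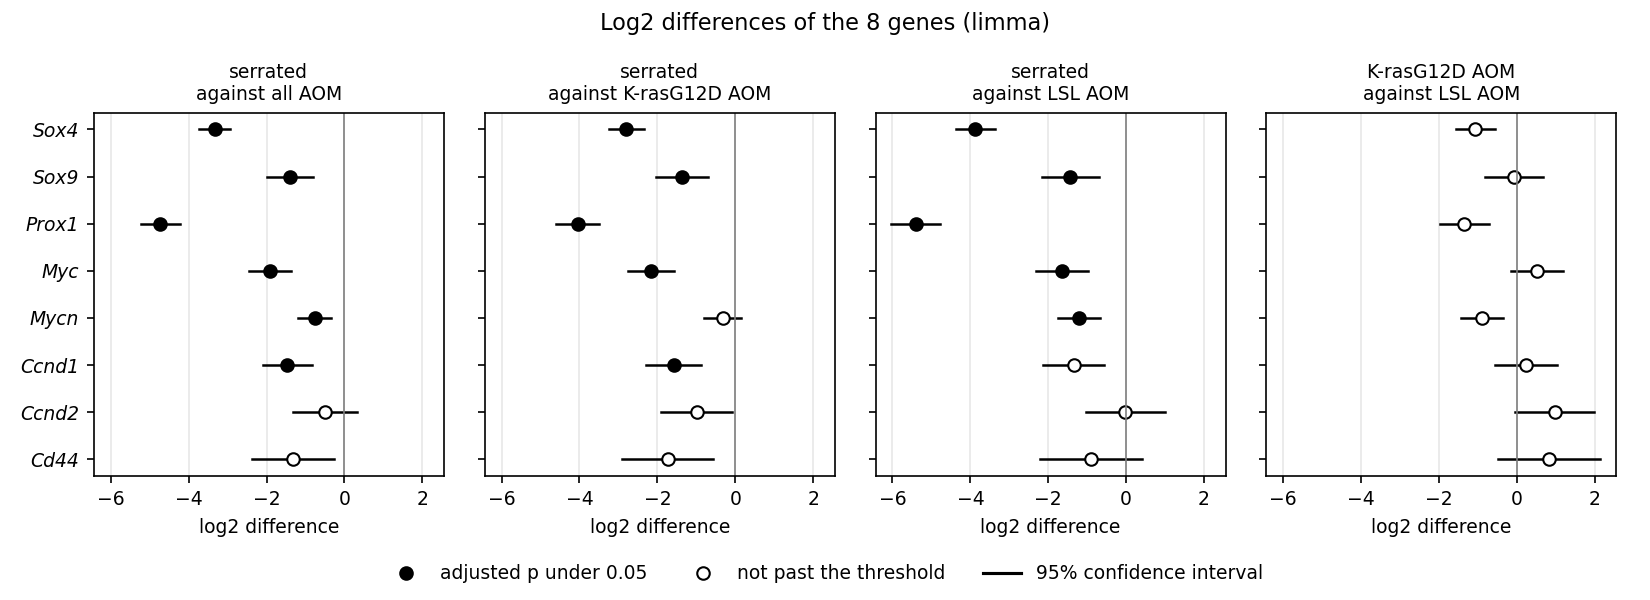
Log2 differences of the 8 genes in the 4 comparisons; points are limma estimates, lines are 95% confidence intervals, and filled points passed an adjusted p of 0.05. In the serrated comparisons Sox9, Myc, Sox4 and Prox1 are filled throughout, while Ccnd2 and Cd44 are open throughout; in K-rasG12D AOM against LSL AOM all 8 are open.

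With each AOM group taken alone, 5 of the 8 genes fell against K-rasG12D AOM tumors and 0 rose, where 3.99% of all genes fell and 2.46% rose. The 5 were Sox4, Sox9, Prox1, Myc and Ccnd1. Against LSL AOM tumors 5 fell and 0 rose as well, where 3.4% of all genes fell and 2.31% rose, and Mycn took the place of Ccnd1. At an unadjusted p under 0.05, 7 genes were lower and 0 higher against K-rasG12D AOM tumors, where 13.9% and 7.84% of all genes were. Against LSL AOM tumors, 6 were lower and 0 higher, where 12.1% and 8.15% of all genes were. Both comparisons use the same 3 serrated arrays. The count against K-rasG12D AOM tumors was 3 without serrated replicate 2 or K-rasG12D AOM replicate 1 or 2. There 2.1%, 2.5% and 1.96% of all genes passed in either direction. The count against LSL AOM tumors was 2 without serrated replicate 2 or either LSL AOM array, and also in a fit of those groups alone. All-gene shares were 1.96% without serrated replicate 2, 1.03% and 0.883% without LSL AOM replicates 1 and 2, and 1.67% in that fit.

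The AOM groups were compared directly to ask whether K-rasG12D moved these genes within AOM tumors. None of the 8 genes passed in either direction in limma, as for 0% of all genes. At an unadjusted p under 0.05, 3 were lower (Sox4, Prox1 and Mycn), against 4% of all genes, and 0 were higher, against 4.35%. Prox1 differed by -1.35 (95% confidence interval -1.97 to -0.73, adjusted p = 0.259), Sox4 by -1.07 (-1.57 to -0.56, 0.269) and Mycn by -0.89 (-1.43 to -0.36, 0.327) in K-rasG12D AOM relative to LSL AOM tumors. For these 3 genes no K-rasG12D AOM array reached an LSL AOM array.

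Other members lay on the opposite side of 0. Ccnd2 differed by 0.97 (-0.05 to 1.98, adjusted p = 0.628), Cd44 by 0.83 (-0.48 to 2.14, 0.838) and Myc by 0.51 (-0.16 to 1.18, 0.756). Their AOM arrays did not overlap either, with K-rasG12D AOM tumors higher. Such separation, with 3 arrays against 2, was met by 15.7% of all genes in the lower direction and 16.4% in the higher one. Sox9 (-0.07) and Ccnd1 (0.23) overlapped between the AOM groups.

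Related genes were set against each other within each array, which asks whether they changed unequally, not whether either stayed the same. Sox4 minus Sox9 was -1.35 ± 0.26 on serrated arrays (SD, n = 3) and 0.49 ± 0.57 on AOM arrays (SD, n = 5). The difference between these was -1.84, without overlap (exact two-sided permutation test, p = 0.0357, adjusted over 3 pairs p = 0.0536). Ccnd1 minus Ccnd2 was -2.51 ± 0.35 on serrated arrays (SD, n = 3) and -1.62 ± 0.47 on AOM arrays (SD, n = 5). The difference of -0.89 came with the same exact p of 0.0357, adjusted 0.0536. Myc minus Mycn was 2.13 ± 0.75 on serrated arrays (SD, n = 3) and 3.41 ± 0.80 on AOM arrays (SD, n = 5), with exact p = 0.107 before and after adjustment. With 56 ways to choose 3 of 8 arrays, 0.0357 is the smallest p this test can give, and none of the 3 pairs passed after adjustment. A pair could pass after adjustment only if all 3 had that p, so Sox4 minus Sox9 and Ccnd1 minus Ccnd2 could not pass on their own values. Levels of different probe sets are not comparable, so only the change in these differences carries meaning.

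**Figure D3:**
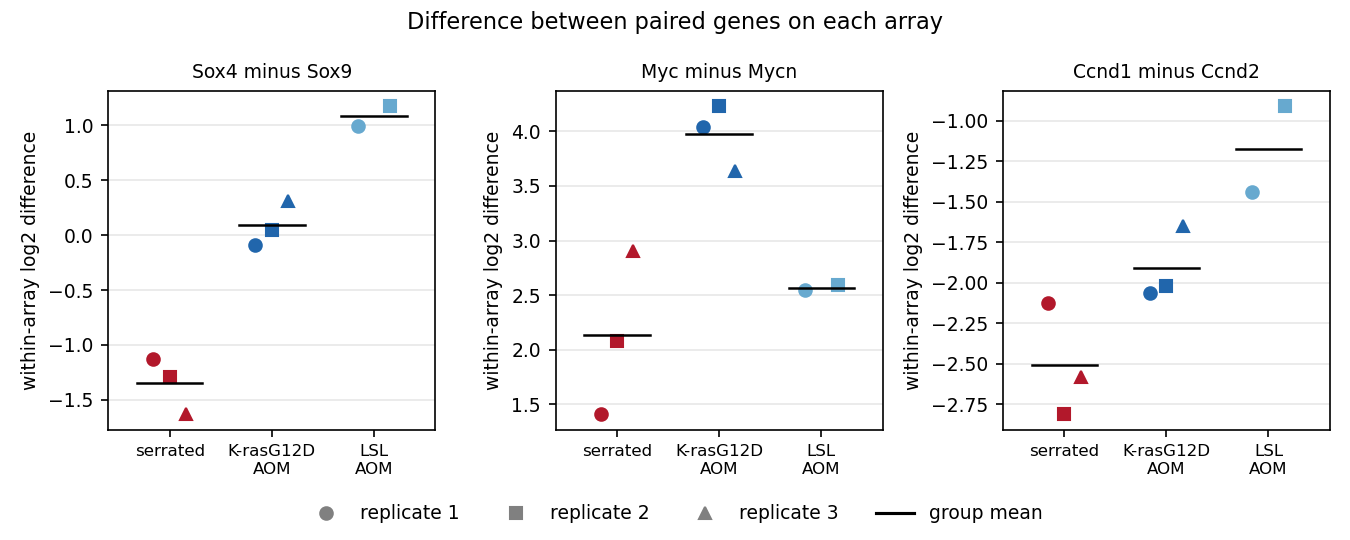
Within-array log2 difference between related genes on serrated, K-rasG12D AOM and LSL AOM arrays; points are arrays, bars are group means, and the y axes differ between panels. Serrated arrays lie below all AOM arrays for Sox4 minus Sox9 and for Ccnd1 minus Ccnd2, and overlap with LSL AOM arrays for Myc minus Mycn.

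The 8 genes differed in how evenly the serrated tumors carried them. The range over the 3 serrated arrays was 0.43 for Sox4, 0.53 for both Prox1 and Mycn, 0.87 for Sox9 and 0.96 for Myc. It was 1.30 for Ccnd1, 1.76 for Ccnd2 and 2.40 for Cd44, where the median gene had 0.60. Serrated replicate 3 was the highest serrated array for 7 of the 8 genes, all but Mycn, as for 38.0% of all genes.

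Taken singly, the 14 other Wnt target and feedback genes measured had ranges over the serrated arrays with a median of 0.40. The ranges were 1.69 for Ephb3, 0.86 for Axin2 and 0.10 to 0.78 for the other 12 genes. Ephb3 measured 4.65, 5.30 and 6.34 on serrated arrays, with replicate 3 highest, and Axin2 measured 4.13, 3.27 and 3.51. The mean level of the 14 genes, which evens out single genes, was 4.16, 4.05 and 4.12 on serrated arrays, 6.68 to 7.12 on K-rasG12D AOM arrays and 7.24 to 7.25 on LSL AOM arrays. Of these 14, 13 fell, 0 rose and 1, the guidance receptor gene Ephb3, did not pass (-1.22, adjusted p = 0.0726), a pattern that earlier results of these data had already shown for many of them. Cell cycle genes had the same order of serrated arrays as Cd44, Ccnd1, Ccnd2, Sox9 and Myc, and as the mean of the Myc-driven growth genes. On serrated replicates 1, 2 and 3 the cell cycle genes averaged 5.52, 5.71 and 6.70, against 6.66 to 6.78 on K-rasG12D AOM and 7.07 to 7.08 on LSL AOM arrays. Of the 15 measured, 7 fell against all AOM tumors, 0 rose and 8 did not pass. That count was 0 without serrated replicate 2 or LSL AOM replicate 1, 1 without LSL AOM replicate 2, 2 to 4 without serrated replicate 1 or any K-rasG12D AOM array, and 13 without serrated replicate 3. Without serrated replicate 2, 3.2% of all genes passed, and without serrated replicate 3, 19.4%.

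**Figure D4:**
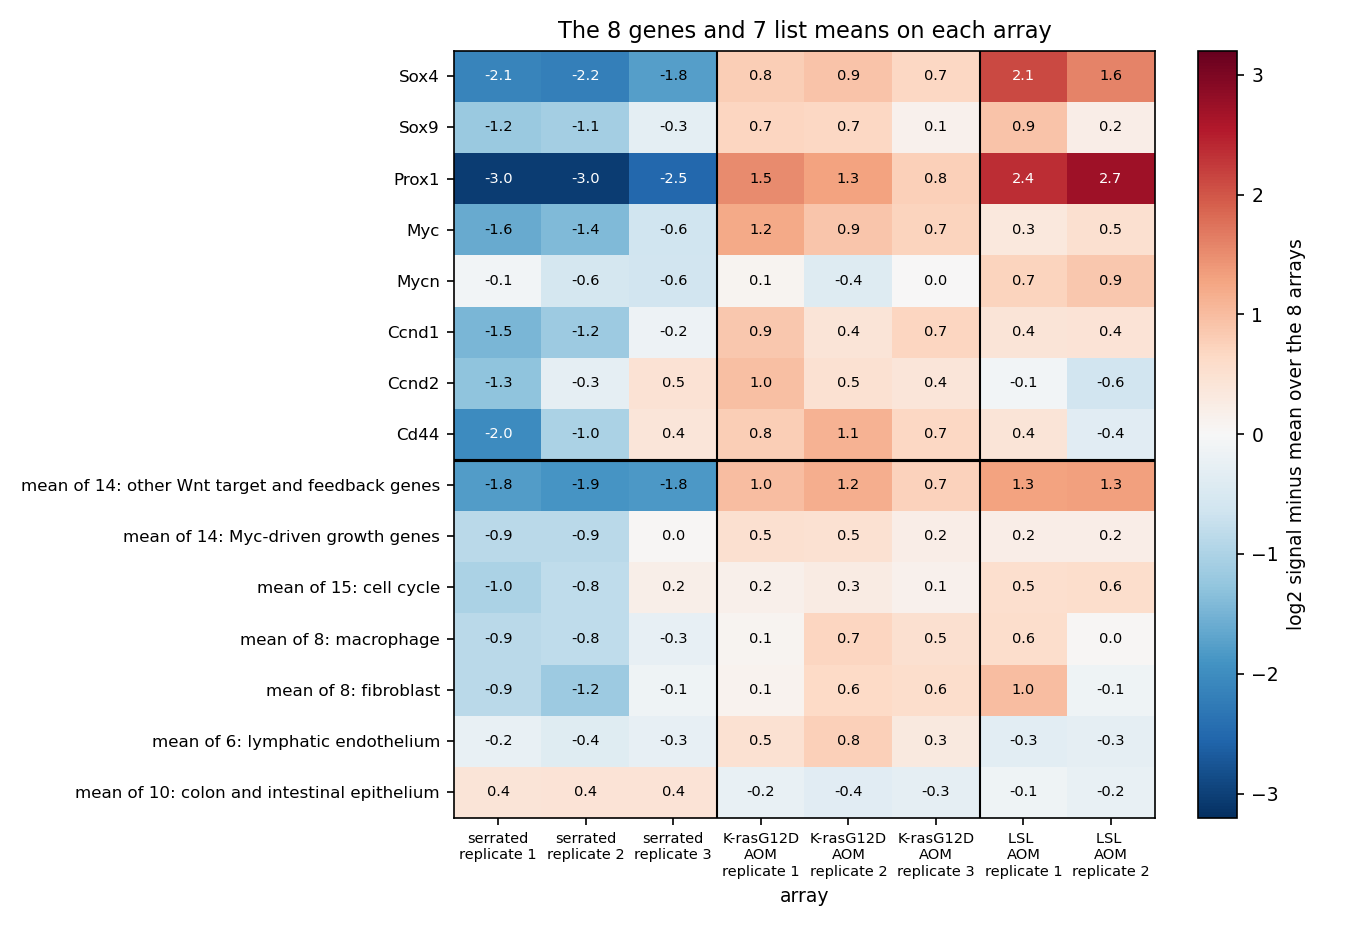
Log2 signal of the 8 genes and the mean signal of 7 gene lists on each array, each row minus its mean over the 8 arrays, with serrated arrays left of the K-rasG12D AOM and LSL AOM arrays. Sox4, Prox1 and the other Wnt genes are low on all 3 serrated arrays, while Ccnd2, Cd44 and the cell cycle list are above their mean on serrated replicate 3.

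The profile of each gene over the 8 arrays, taken as deviations from its own mean, was compared with those of all other genes by the root mean square difference in log2 units. Among the 8 genes, the closest profiles were those of Ccnd1 and Myc (0.29) and of Ccnd1 and Sox9 (0.31), while Prox1 and Ccnd2 were farthest apart (2.17). Outside them, Sox4 was closest to Cnn3 (0.22), an actin-binding calponin, and to Rnf43 (0.37), a ubiquitin ligase that removes Wnt receptors. Prox1 was closest to the matrix proteoglycan gene Spock2 (0.33) and to Nkd1 (0.39), a Wnt feedback inhibitor. Sox9 was closest to Sorbs2 (0.11) and Cdc42ep1 (0.15). Myc was closest to Tcf4 (0.21) and to the purine synthesis gene Ppat (0.21). Despite its symbol, Tcf4 encodes a basic helix-loop-helix factor and is not one of the TCF/LEF genes.

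For Ccnd1 the closest genes were Wdr77 (0.13) and Rsu1 (0.14), and for Ccnd2 they were Vma21 (0.18) and Samd5 (0.19). Cd44 was closest to the interferon receptor gene Ifnar2 (0.22) and to Eif4e (0.24), which binds the cap of messenger RNA. Mycn, a dim gene with little variation, was closest to Snord55 (0.13) and Mapk15 (0.18). These are descriptions over 8 arrays in 3 groups, and after quantile normalization 6 of the 16 genes named were again the closest.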

How the data were processed

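Affymetrix arrays of 8 mouse colonic tumors were used, 1 per sample. The deposited values are log2 signals that the authors made with RMA, and GCOS is the other tool in the submitters' processing notes. Versions and settings are not given in the sources used here. Values ran from 0.564 to 13.5 and were not scaled further.

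Of 35557 probe sets, 21789 carried exactly 1 gene symbol in the platform annotation (dated, so symbols can be old) and 1621 several, which were not used. The probe set of highest mean stood for a gene, giving 19938 genes with no filter on dim ones. limma 3.58.1 (R 4.3.3) fitted the means of 3 groups over 8 arrays, leaving 5 residual degrees of freedom, and all AOM stands for the mean of both AOM group means. P-values were adjusted by Benjamini-Hochberg over all genes, and an adjusted p under 0.05 passed. The fit assumes 1 spread per gene in all groups, whereas serrated arrays varied most for Cd44, Ccnd2 and Ccnd1. The number of arrays limits the precision. The procedure was also tested on simulated data.

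Named genes are the 8 members, Cdkn2a, the 2 genes closest to each member and up to 4 genes of smallest adjusted p per pathway list. Axin2, Ephb3, Ccnd3, other genes listed as fallen and the marker genes were named beyond this rule, after their values were seen. Members, lists and tests were chosen with earlier results of these data known. Of the list genes, 11 were not analysed here. Promoter sequences come from RefSeq (GRCm38.p6). Related genes were compared with exact permutation tests over samples. Alternatives were other normalizations, a filter on dim genes, other variance models, array weights, the mean over probe sets, a fit of the compared groups alone, and leaving out each array.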

Additional observations from a re-analysis of the deposited data

How the results depend on the processing

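No paired analysis was possible because the sample titles carry a different number for each sample and share none between groups. Of 472 values of the 8 genes under the alternatives chosen at the outset, 410 kept direction and side of the threshold, 38 no longer passed, 17 newly passed and 7 turned sign. None of the 7 was past the threshold. For Ccnd2 in serrated against LSL AOM tumors (-0.02), the turned values were 0.0105 after quantile normalization, 0.00725 after subtraction of array medians, 0.0649 with array weights, 0.44 without serrated replicate 1 and 0.24 without LSL AOM replicate 1, within a range of -0.44 to 0.44 with 1 array left out. For Sox9 in K-rasG12D AOM against LSL AOM tumors (-0.07), they were 0.11 without K-rasG12D AOM replicate 3 and 0.28 without LSL AOM replicate 1, within -0.41 to 0.28.

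With 1 array left out in turn, the number of the 8 genes that passed ran from 3 to 6 against all AOM tumors, from 3 to 7 against K-rasG12D AOM tumors, from 2 to 7 against LSL AOM tumors, and was 0 throughout between the AOM groups. The lower ends of the serrated ranges were met without serrated replicate 2, where 3.2%, 2.1% and 1.96% of all genes passed, in that order. The upper ends were met without serrated replicate 3, where 19.4%, 15.98% and 12.7% of all genes passed. Calls over all genes thus moved the same way as those of the 8 genes against each AOM group alone. Against all AOM tumors the count of 6 without serrated replicate 3 equalled the reported one. Cd44 was gained there (adjusted p = 0.00549 in limma) and Mycn lost (0.0566). All-gene calls rose there to 19.4% in either direction, from 5.76% lower and 3.62% higher. Fitting only serrated and LSL AOM arrays left 2 of the 8 genes and 1.67% of all genes, with fewer arrays behind the spread. Array weights, whose estimation stopped before it converged, called 8 genes against K-rasG12D AOM tumors (50.0% of all genes) and 1, Sox4, between the AOM groups (0.617%). They also called 8 against all AOM tumors, where they called 51.8% of all genes, and the cause was not tested. Subtracting array medians moved the median of all genes in that comparison to 0.10, against 0.04, and ended the call of Mycn (adjusted p = 0.0529). It also ended those of Sox9 against K-rasG12D AOM (0.0510) and LSL AOM tumors (0.0547). The differences between related genes ran from -1.98 to -1.67 for Sox4 minus Sox9, from -1.66 to -0.92 for Myc minus Mycn and from -1.08 to -0.71 for Ccnd1 minus Ccnd2 with 1 array left out. The alternatives for list counts and for the closest genes were chosen after seeing the data. The count of 6 Myc-driven growth genes lower was 3 after subtraction of array medians, 10 without the dimmest 40% of genes and 13 with array weights. Of all genes fitted, 7.87%, 17.7% and 51.8% passed in these settings. Prox1 on serrated arrays lies below the median gene, and Mycn near it on serrated and K-rasG12D AOM arrays, where differences are least certain.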
